A study of Mus musculus with 10 samples.

Results

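Gene expression in the outer root sheath (ORS) of the mouse hair follicle was compared with that in the dermal fraction (DF) around it, on 2 Affymetrix MOE430A arrays of each population out of the 10 arrays of the series. All 22626 probe-sets that are not array controls entered the comparison, in both directions, on the scale of log2(signal + 50). Both populations were sorted by flow cytometry from 4 day old backskins of mice that carried 2 transgenes, K14-H2BGFP, in which the keratin 14 promoter drives a histone tagged with green fluorescent protein (GFP), and Lef1-RFP, in which a fragment of the LEF1 promoter drives a red fluorescent protein (RFP). ORS cells were GFP-high and RFP-. DF cells were negative for both reporters and had been depleted of cells carrying CD34, CD45 or CD117, which leaves a fraction enriched in fibroblasts but defined by what it lacks. Epidermis and upper follicle had been removed beforehand, each preparation pooled several backskins, and the RNA was amplified once before labelling. Both groups share genotype, age and tissue, and neither was treated.

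The ORS is the outermost layer of the follicle, a downward continuation of the basal layer of the epidermis. Its keratinocytes rest on a basement membrane, a sheet of laminins, type IV collagen, nidogens and proteoglycans, and they grip it through hemidesmosomes, in which integrin and collagen XVII chains join the keratin filaments to laminin. On the far side lies the dermis, where fibroblasts secrete fibrillar collagens, elastic fibres and proteoglycans, and where vessels with their pericytes, nerves with their Schwann cells and other cells are embedded. Parts of a basement membrane can be made on either side of it.

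The sorted cells carried the genes of their labels, with some signal from the other side. Krt14, the basal keratin whose promoter drives the GFP reporter, read 4932 and 6499.8 in ORS and 219 and 502 in DF. Epcam, an epithelial adhesion molecule, read 1112 and 909 in ORS and 66.0 and 83.8 in DF. Col1a2, a chain of type I collagen, read 609 and 734 in ORS and 12178 and 11643 in DF, and Rgs5, a regulator of G-protein signalling known from pericytes, read 32.2 and 39.7 in ORS and 6184 and 6114 in DF. Both ORS arrays lay above both DF arrays for Krt14 and Epcam, and below them for Col1a2 and Rgs5. The share of all genes separated in this way was not computed. For Krt14 the direction was built into the sort, which used a reporter driven by its promoter. DF replicate 2 held more of the epithelial signal than DF replicate 1. The summed signal of 12 basal and sheath keratins was 20043 and 25263 in ORS against 1432 and 2760.0 in DF. The summed signal of 19 fibroblast genes was 3983 and 4722 in ORS against 30839 and 27748 in DF. The part that such residual signal has in any result was not tested. Pearson's r across all probe-sets was 0.981 between the ORS arrays and 0.978 between the DF arrays, and 0.863 to 0.886 between an ORS and a DF array. The 3' to 5' ratio of the Gapdh probe-sets, a sign of RNA integrity, lay between 0.795 and 1.08 on the 4 arrays. Between 6140 and 6585 probe-sets of an array read at least 200.

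More genes were higher in DF than in ORS. Of 22626 probe-sets, limma called 1647 higher in ORS (7.28%) and 2942 higher in DF (13.0%) at an adjusted p under 0.05. With each gene taken at its brightest probe-set on average over the 10 arrays, 986 of 12393 genes were higher in ORS (7.96%) and 1814 were higher in DF (14.6%). The differences toward DF were also larger, since 286 of the DF genes and 94 of the ORS genes differed at least 4-fold, and 32 and 1 at least 16-fold. Folds are ratios of signal + 50 and are therefore smaller than plain ratios where signal is low. After quantile normalization the direction of the calls was even, with 2413 probe-sets higher in ORS and 2339 higher in DF, so that 50.8% of the called probe-sets were higher in ORS against 35.9% without it. The count higher in ORS fell to 826 without DF replicate 1 and to 882 without ORS replicate 1, and the count higher in DF fell to 1773 without ORS replicate 1. An exact permutation test of 2 arrays against 2 cannot go below a p of 0.333, so each call rests on a spread that limma pools over 5 populations and over probe-sets. In such bulk samples fewer cells of a type and less RNA per cell cannot be told apart.

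**Figure D1:**
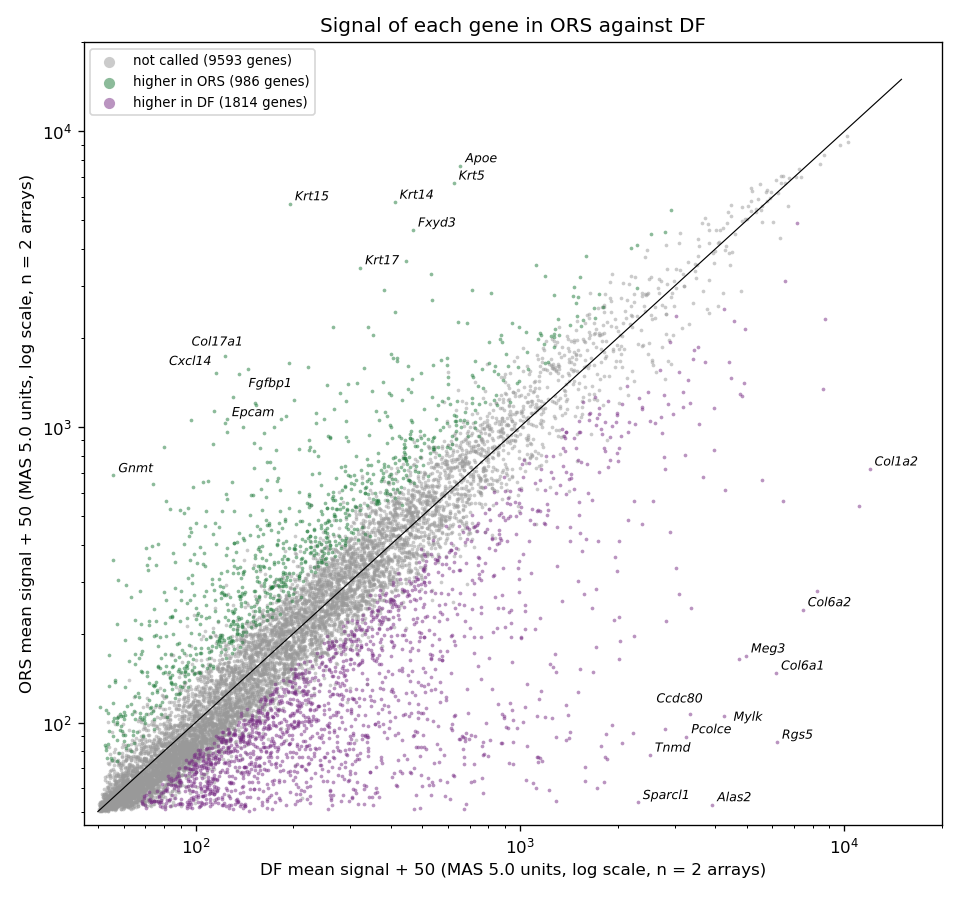
Mean signal + 50 of each of 12393 genes in DF (horizontal, log scale) and ORS (vertical, log scale), n = 2 arrays each, with genes called by limma in green (986 higher in ORS) and purple (1814 higher in DF). Krt15 lies farthest above the line of equal signal, and Alas2 and Rgs5 lie farthest below it.

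The largest difference toward ORS belonged to Krt15, a keratin of basal and follicle stem cell keratinocytes. It read 5034 and 6261 in ORS and 97.2 and 194 in DF, 29.9-fold higher in ORS (log2 difference 4.90 with a standard error of 0.30, adjusted p = 4.9e-05). Krt14 was 14.8-fold higher (log2 difference 3.89, adjusted p = 0.000146) and Col17a1, the transmembrane collagen of the hemidesmosome, 14.5-fold higher (1403 and 1985 in ORS and 40.0 and 106 in DF). Krt5, the keratin that pairs with Krt14, read 5605 and 7679 in ORS and 304 and 845 in DF and Krt17, a keratin of skin appendages, 3336 and 3485 in ORS and 176 and 367 in DF. The other leading ORS genes were not structural. Cxcl14, a secreted chemokine, read 1351 and 1587 in ORS and 56.4 and 74.4 in DF, and Apoe, a lipid carrier, 6339 and 8888 in ORS and 343 and 867 in DF. Fgfbp1, which carries fibroblast growth factors away from the matrix, read 1489.8 and 1437 in ORS and 46.1 and 125 in DF. Gnmt, a glycine methyltransferase, read 418 and 853 in ORS and 5.7 and 5.9 in DF, and Fxyd3, a regulator of the sodium pump, read 4208 and 4976 in ORS and 207 and 629 in DF. The log2 differences of these 10 genes ran from 3.47 to 4.90.

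Toward DF the largest difference belonged to Alas2, the haem synthesis enzyme of developing red cells, which read 1.4 and 4.2 in ORS and 3462 and 4266 in DF, 73.8-fold higher in DF (log2 difference -6.21 with a standard error of 0.12, adjusted p = 1.01e-06). Rgs5 was 72.2-fold higher (log2 difference -6.17, adjusted p = 1.48e-05). Sparcl1, a matrix glycoprotein related to Sparc, read 3.7 and 3.7 in ORS and 1814 and 2701 in DF. Mylk, the kinase of myosin light chain in contractile cells, read 29.8 and 81.1 in ORS and 4226 and 4157 in DF. These leading genes included genes known from red cells and vessel walls as well as from connective tissue. Col6a1 and Col6a2, chains of the microfibrillar collagen VI, read 98.1 and 96.2 in ORS and 7354 and 4864 in DF, and 188 and 194 in ORS and 8289 and 6498 in DF. Pcolce, which speeds the trimming of procollagen, read 38.3 and 41.1 in ORS and 2652 and 3762 in DF, Tnmd, a membrane glycoprotein of tendon and ligament cells, 35.8 and 19.6 in ORS and 2418 and 2512 in DF, and Ccdc80, a matrix protein, 59.4 and 54.2 in ORS and 3683 and 2893 in DF. Meg3, an imprinted long noncoding RNA, read 110.4 and 126 in ORS and 5047 and 4802 in DF, and all 5 of its probe-sets were higher in DF.

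The promoters of 4 genes that mark the 2 sides were read as RefSeq gives them in its GRCm38.p6 table, as the 250 bases before the annotated start, 5′ to 3′ on the strand of the gene. They are Krt5 (chr15:101712906-101713155, minus strand) and Col17a1 (chr19:47692043-47692292, minus strand) for the sheath, and Nid1 (chr13:13437352-13437601, plus strand) and Rgs5 (chr1:169655251-169655500, plus strand) for the dermis. Capitals mark exact matches on either strand to TATAAA (the TATA box), to CCAAT (the box of that name), to GGGCGG (the GC box) or to TGANTCA (the AP-1 site), and no matches overlap in these windows.
Krt5: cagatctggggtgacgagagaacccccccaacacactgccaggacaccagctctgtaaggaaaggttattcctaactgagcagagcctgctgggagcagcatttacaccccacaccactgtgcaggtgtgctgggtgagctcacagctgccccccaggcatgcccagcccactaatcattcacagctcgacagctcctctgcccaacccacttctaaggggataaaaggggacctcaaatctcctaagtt
Col17a1: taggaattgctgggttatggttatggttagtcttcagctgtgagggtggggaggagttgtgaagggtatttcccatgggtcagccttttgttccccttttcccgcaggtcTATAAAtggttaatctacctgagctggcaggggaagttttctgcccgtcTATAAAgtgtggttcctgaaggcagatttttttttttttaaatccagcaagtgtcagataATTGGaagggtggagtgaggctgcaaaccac
Nid1: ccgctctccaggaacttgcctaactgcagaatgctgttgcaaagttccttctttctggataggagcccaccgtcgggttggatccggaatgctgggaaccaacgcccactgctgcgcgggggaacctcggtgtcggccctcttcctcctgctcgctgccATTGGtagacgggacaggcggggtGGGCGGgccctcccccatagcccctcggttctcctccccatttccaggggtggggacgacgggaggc
Rgs5: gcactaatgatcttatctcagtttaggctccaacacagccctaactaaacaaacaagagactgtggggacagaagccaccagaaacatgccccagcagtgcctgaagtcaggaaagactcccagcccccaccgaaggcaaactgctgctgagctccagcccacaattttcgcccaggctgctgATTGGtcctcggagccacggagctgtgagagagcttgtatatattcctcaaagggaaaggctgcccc
Krt5 held none of the 4 motifs as spelled, Col17a1 held TATAAA at 2 places and CCAAT at 1, and Nid1 held CCAAT and GGGCGG once each. Rgs5 held CCAAT at 1 place. Of 32851 promoter windows of 250 bases in that table, 12.4% held TATAAA, 33.8% CCAAT, 32.7% GGGCGG and 6.75% TGANTCA on either strand. A match describes the letters of the window and not a site in use.

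Basement membrane genes differed toward both sides, and several had signal in both populations. Of 31 genes measured, 6 were higher in ORS and 12 higher in DF, 13 did not pass, and shares of 7.96% and 14.6% of all genes were called in these directions. Their median log2 difference was -0.29, against -0.075 over all genes. Higher in ORS were the chains of laminin-332 and laminin-511 that were measured with a difference, together with Col4a5, Smoc2 and Npnt. Among those higher in DF were Nid1, Nid2, Lama2, Lama4 and the 2 chains of the common type IV collagen. DF also held genes of vessel walls, endothelium and Schwann cells. Which cells of DF gave the basement membrane signal, and whether they lay against the sheath, was not tested. Without ORS replicate 2 the count higher in ORS fell to 3, since Lama5, Col4a5 and Smoc2 no longer passed, while the count higher in DF was 11 in each fit that left out 1 of the 4 arrays.

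Laminins are trimers of an alpha, a beta and a gamma chain. Lamb3, the beta chain of the epithelial laminin-332, read 498 and 709 in ORS and 50.4 and 61.2 in DF, 6.1-fold higher in ORS (log2 difference 2.61 with a standard error of 0.18, adjusted p = 8.1e-05). Lama3, its alpha chain, read 384 and 558 in ORS and 59.0 and 104 in DF, 3.96-fold higher (adjusted p = 0.00131). The ORS arrays were both well above the DF arrays for each. Lama5, the alpha chain of laminin-511, read 733 and 1062 in ORS and 327 and 492 in DF and differed less (2.06-fold, adjusted p = 0.0225), and its call was lost without ORS replicate 2 (adjusted p = 0.116) or DF replicate 1 (adjusted p = 0.131). A dimmer Lama5 probe-set read 435 and 586 in ORS and 142 and 176 in DF, 2.66-fold higher in ORS (adjusted p = 0.000959). In the other direction Lama4, the alpha chain of vessel laminins, read 13.2 and 61.8 in ORS and 1361 and 1312 in DF, 16.5-fold higher in DF (log2 difference -4.04, adjusted p = 0.000135). Lama2, the alpha chain known from muscle and nerve, read 28.5 and 24.5 in ORS and 1233 and 928 in DF, 14.7-fold higher (adjusted p = 1.96e-05). Lamb2 read 64.4 and 63.9 in ORS and 225 and 314 in DF and Lamc3 49.2 and 50.3 in ORS and 232 and 183 in DF, 2.77-fold and 2.57-fold higher in DF. The beta and gamma chains that many laminins share, Lamb1 and Lamc1, did not pass. Lamb1 read 1102 and 969 in ORS and 1259 and 1181 in DF (log2 difference -0.23, adjusted p = 0.232), and Lamc1 read 671 and 859 in ORS and 934 and 1245 in DF (log2 difference -0.48, adjusted p = 0.257). Lama1 read 2.1 and 0.9 in ORS and 1.6 and 3.9 in DF.

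Type IV collagen forms the network of the basement membrane from 6 chains. Col4a1 and Col4a2, whose genes lie head to head, were both higher in DF, but also had signal in ORS. Col4a1 read 2909 and 3246 in ORS and 6282 and 6709 in DF, 2.1-fold higher in DF (log2 difference -1.07 with a standard error of 0.17, adjusted p = 0.00376), and Col4a2 read 974 and 1342 in ORS and 2889 and 3684 in DF, 2.77-fold higher (adjusted p = 0.000894). Col4a5, a chain of epithelial networks, went the other way with 379 and 403 in ORS and 200.1 and 200.5 in DF (1.76-fold higher in ORS, adjusted p = 0.00983). Its call was lost by a small margin without ORS replicate 2 (adjusted p = 0.0541) or DF replicate 1 (adjusted p = 0.0536). Col4a6, its partner chain, read 140.1 and 176 in ORS and 87.5 and 81.7 in DF on its brightest probe-set (log2 difference 0.62, adjusted p = 0.083, or 0.0448 with the replicate number as a block), and a further probe-set of Col4a6 was higher in ORS by 1.17 on the log2 scale. Col4a3 read 38.1 and 51.9 in ORS and 71.8 and 60.9 in DF and Col4a4 45.0 and 29.4 in ORS and 23.1 and 20.3 in DF, and neither passed.

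The nidogens, which link the laminin and collagen networks, were higher in DF. Nid1 read 44.0 and 40.6 in ORS and 2183 and 2194 in DF, 24.3-fold higher in DF (log2 difference -4.60 with a standard error of 0.22, adjusted p = 1.7e-05), and Nid2 read 24.8 and 20.8 in ORS and 970.3 and 783 in DF, 12.7-fold higher (adjusted p = 3.68e-05). Sparc, a collagen-binding glycoprotein, read 341 and 638 in ORS and 10997 and 11153 in DF, 21.4-fold higher in DF (adjusted p = 0.000118). Tinagl1, a matrix protein with a protease-like fold, read 68.1 and 84.9 in ORS and 1199 and 1723 in DF, and Col15a1, a collagen of vessel and muscle membranes, 12.8 and 27.1 in ORS and 398 and 444 in DF. The nidogen signal in ORS was below 50 on both arrays. Smoc1, a calcium-binding matrix protein, read 45.2 and 55.3 in ORS and 105 and 110.0 in DF and passed narrowly (log2 difference -0.65, adjusted p = 0.0431), a call lost without any 1 of the 4 arrays (adjusted p between 0.0968 and 0.195). Its relative Smoc2 was higher in ORS with 458 and 646 in ORS and 119.5 and 196 in DF (2.91-fold, adjusted p = 0.0229), lost without ORS replicate 1, ORS replicate 2 or DF replicate 1 (adjusted p = 0.0562, 0.114 and 0.135). Npnt, nephronectin, a ligand of integrin alpha 8, read 704 and 1116 in ORS and 88.0 and 62.6 in DF, 7.52-fold higher in ORS (log2 difference 2.91, adjusted p = 0.000161). Of the 4 dimmer Npnt probe-sets 1 was also higher in ORS, by 2.11 on the log2 scale, and 3 did not pass.

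The large proteoglycans of the membrane did not pass over all 10 arrays and all probe-sets, but the calls of Agrn and Col18a1 depended on the fit. Hspg2, perlecan, read 357 and 541 in ORS and 526 and 524 in DF (log2 difference -0.23, adjusted p = 0.548). Agrn, agrin, read 1194 and 1772 in ORS and 493 and 607 in DF, with both ORS arrays above both DF arrays (log2 difference 1.33 with a standard error of 0.47, adjusted p = 0.0866), and it passed when only the 4 arrays were fitted (adjusted p = 0.0325) or when the test was limited to probe-sets that reached 200 on both arrays of ORS or DF (adjusted p = 0.0169). Col18a1, whose fragment is endostatin, read 1298 and 1876 in ORS and 2772 and 2987 in DF (log2 difference -0.86, adjusted p = 0.125), and it passed as higher in DF with the replicate number as a block (adjusted p = 0.0334) and under the same limit of 200 (adjusted p = 0.0417). Col7a1, the collagen of the anchoring fibrils beneath the membrane, read 388 and 584 in ORS and 363 and 228 in DF (log2 difference 0.64, adjusted p = 0.0852, or 0.0415 without DF replicate 1), and its groups were separated by a small gap. Egfl6, an integrin ligand of the follicle, read 84.6 and 67.8 in ORS and 219.9 and 144 in DF (log2 difference -0.86, adjusted p = 0.125). Ntn4, a laminin-binding netrin, read 45.8 and 34.2 in ORS and 41.4 and 43.4 in DF and Papln, papilin, 11.9 and 2.5 in ORS and 1.4 and 1.8 in DF, and neither passed.

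**Figure D2:**
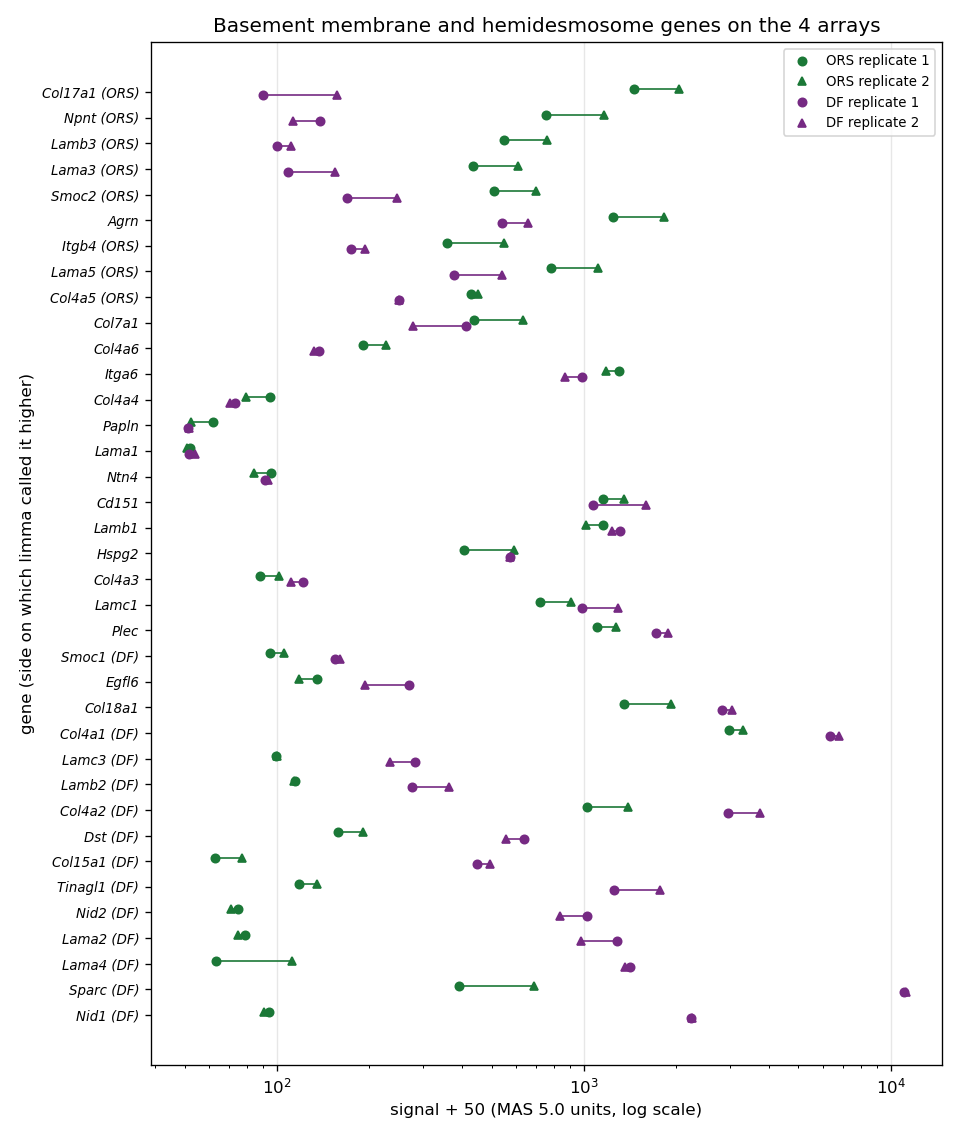
Signal + 50 (log scale) of the 31 basement membrane and 6 hemidesmosome genes on the 2 ORS arrays (green) and the 2 DF arrays (purple), circles for replicate 1 and triangles for replicate 2, ordered by the log2 difference, with the side called by limma in brackets. The ORS points of Npnt, Lamb3 and Lama3 lie to the right of the DF points, and those of Nid1, Sparc, Lama4 and Lama2 far to the left.

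On the cell side of the membrane, hemidesmosome genes were not all higher in ORS. By their brightest probe-sets 2 of 6 genes were higher in ORS, Dst alone was higher in DF and 3 did not pass. Of all genes 7.96% were called toward ORS and 14.6% toward DF, so the single call toward DF was near that share. Col17a1 differed most (log2 difference 3.86 with a standard error of 0.32, adjusted p = 0.000176). Itgb4, the integrin beta chain of the hemidesmosome, read 308 and 499.8 in ORS and 124 and 144 in DF, 2.41-fold higher in ORS (adjusted p = 0.0394), a call lost without any 1 of the 4 arrays (adjusted p between 0.0561 and 0.182). Its partner Itga6 read 1253 and 1132 in ORS and 936 and 818 in DF (log2 difference 0.42, adjusted p = 0.25). Plec, plectin, which ties filaments to membranes in many cell types, read 1057 and 1225 in ORS and 1666 and 1835 in DF (log2 difference -0.60, adjusted p = 0.115, or 0.0208 with the replicate number as a block), and Cd151, a tetraspanin partner of integrins, 1102 and 1296 in ORS and 1022 and 1544 in DF (log2 difference -0.07, adjusted p = 0.856). The probe-sets of Dst, a plakin made in epithelial and other forms, disagreed. Its brightest probe-set over the 10 arrays read 108 and 140.3 in ORS and 587 and 506 in DF, 3.43-fold higher in DF (adjusted p = 0.000479). A pair of its other probe-sets was higher in ORS, by 3.64 and 3.57 on the log2 scale. The former read 1059 and 1594 in ORS and 32.7 and 92.0 in DF. The latter read 630 and 813 in ORS and 19.5 and 9.8 in DF. The fourth probe-set did not pass, so no single direction holds for Dst.

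Receptors for matrix were found on both sides. Of 12 integrins 2 were higher in ORS and 8 higher in DF. Itga3, the alpha chain of the main laminin-332 receptor beside the hemidesmosome, read 491 and 1084 in ORS and 113 and 141 in DF, 4.44-fold higher in ORS (adjusted p = 0.00265). Itgb6, the other integrin higher in ORS, read 95.0 and 105 in ORS and 31.3 and 45.1 in DF, and was named after its value was seen. Itga7, a laminin receptor of muscle and vessel walls, read 24.7 and 46.4 in ORS and 726 and 929 in DF, 10.3-fold higher in DF. Itga9 read 22.6 and 53.9 in ORS and 215 and 337 in DF and Itga8, the receptor of nephronectin, 13.1 and 10.4 in ORS and 114 and 119 in DF, so that Npnt was higher on one side and its receptor chain on the other. Among 13 other matrix receptors 6 were higher in ORS and 4 higher in DF, and without DF replicate 1 the ORS count was 2. The syndecans Sdc4 and Sdc1, transmembrane heparan sulphate proteoglycans, read 2858 and 1944 in ORS and 320.1 and 402 in DF, and 1942 and 2478 in ORS and 513 and 676 in DF. Cd44, the hyaluronan receptor, read 1188 and 1316 in ORS and 336 and 354 in DF (3.29-fold higher in ORS), with an adjusted p of 0.00897 that became 0.0545 without DF replicate 1. Gpc3, a membrane-anchored glypican, went the other way with 211 and 166 in ORS and 1007 and 963 in DF.

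The sheath keratinocyte carried a broad set of epithelial genes. Of 12 basal and sheath keratins 9 were higher in ORS and none in DF, with a median log2 difference of 0.93. Besides the 4 keratins given above, those that passed were low in signal or nearer in level. Krt75, a keratin of the companion layer, was among the 3 that did not pass and read 268 and 308 in ORS and 271 and 388 in DF, a value given after it was seen. Of 12 desmosome genes 7 were higher in ORS and none in DF. Dsg2, a desmosomal cadherin, read 999 and 896 in ORS and 59.0 and 122 in DF, 7.28-fold higher, and all 6 of its probe-sets were higher in ORS. Perp, a membrane protein of desmosomes, read 2626 and 2632 in ORS and 220.1 and 749 in DF. Pkp1 and Pkp3, plakophilins of the desmosomal plaque, read 1042 and 1672 in ORS and 93.0 and 436 in DF, and 863 and 1266 in ORS and 97.7 and 274 in DF. The call of Pkp1 was lost without ORS replicate 2 (adjusted p = 0.0878, against 0.0165). DF replicate 2 was above DF replicate 1 for each of these 4 genes.

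Of 19 epithelial junction genes 12 were higher in ORS and 1 higher in DF. Gjb2 and Gjb6, gap junction connexins of keratinocytes, read 2726 and 4476 in ORS and 180.5 and 611 in DF, and 374 and 549 in ORS and 30.2 and 54.3 in DF. Epcam was 8.47-fold higher (log2 difference 3.08 with a standard error of 0.14, adjusted p = 1.25e-05). Esrp1, a splicing regulator of epithelial cells, read 1062 and 1009 in ORS and 82.3 and 198 in DF. The junction gene higher in DF was Tjp1, a scaffold of tight junctions, with 401 and 334 in ORS and 641 and 636 in DF. It was named after its value was seen, and its call (adjusted p = 0.0454) was lost without any 1 of the 4 arrays and when the chip lot or the replicate number was a block. Of 25 epithelial transcription factors 13 were higher in ORS and 1 higher in DF. Vdr, the vitamin D receptor that hair cycling needs, read 1324 and 1728 in ORS and 80.7 and 109 in DF, 10.8-fold higher. Bnc1, a zinc finger protein of basal keratinocytes, read 1022 and 1146 in ORS and 35.5 and 93.1 in DF, Lhx2, a LIM homeobox factor of follicle progenitors, 1386 and 1034 in ORS and 64.9 and 95.8 in DF, and Trp63, the p53 relative that basal epithelia depend on, 2326 and 1926 in ORS and 139.5 and 290.4 in DF. All 3 Trp63 probe-sets were higher in ORS. The factor higher in DF was Klf4, which read 740.1 and 498 in ORS and 1656 and 1082 in DF, a value given after it was seen, and its call was lost without ORS replicate 2 or DF replicate 1.

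Genes of dividing cells were higher in ORS. Of 25 genes of S phase and mitosis 18 were higher in ORS and none in DF, with a median log2 difference of 0.90. Tk1, thymidine kinase, read 958 and 973 in ORS and 338 and 360.1 in DF, 2.55-fold higher (adjusted p = 8.29e-05). Plk1, a mitotic kinase, read 419.9 and 438 in ORS and 203 and 116 in DF, Mcm5, a subunit of the replicative helicase, 799.6 and 661 in ORS and 324 and 250.4 in DF, and Rrm2, a subunit of ribonucleotide reductase, 2272 and 1582 in ORS and 825 and 811 in DF. These differences were a little over 2-fold and the DF arrays also held signal. Without ORS replicate 1 the count was 12. Of 15 keratinocyte differentiation genes 5 were higher in ORS and none in DF, and without ORS replicate 1, ORS replicate 2 or DF replicate 1 the count was 3. Krt1 and Krt10, the keratin pair of suprabasal epidermis, read 1167 and 797 in ORS and 64.7 and 81.2 in DF, and 1378 and 899 in ORS and 102 and 106 in DF, 8.28-fold and 7.56-fold higher in ORS, each higher on ORS replicate 1 than on ORS replicate 2. Sfn, the 14-3-3 sigma protein, read 1018 and 1014 in ORS and 45.2 and 221 in DF. Klk7, a protease of the cornified layer, read 134 and 164 in ORS and 7.6 and 43.9 in DF (adjusted p = 0.0299), and its call held without DF replicate 2 but not without any of the other 3 arrays. Ivl and Flg, genes of the late cornifying cell given after their values were seen, read 1.7 and 1.7 in ORS and 1.4 and 1.4 in DF, and 14.6 and 15.6 in ORS and 19.7 and 16.7 in DF.

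Genes of glutathione and detoxification went both ways, toward DF at about the share of all genes (14.6%). Of 21 members 7 were higher in ORS and 3 higher in DF, with a median log2 difference of -0.08, and without DF replicate 1 the ORS count was 4. Oplah, which recycles oxoproline into glutamate, read 622 and 1390.4 in ORS and 36.2 and 57.1 in DF, 10.2-fold higher (adjusted p = 0.000479). Gclc and Gclm, the catalytic and modifier subunits of the rate-limiting enzyme of glutathione synthesis, read 1453 and 1737 in ORS and 159 and 129 in DF, and 703 and 1036 in ORS and 191 and 228 in DF, 8.47-fold and 3.5-fold higher. Aldh3a1, an aldehyde dehydrogenase, read 102 and 482 in ORS and 13.8 and 37.1 in DF with widely spread ORS arrays (adjusted p = 0.0288), and its call was lost without DF replicate 1 or DF replicate 2 (adjusted p = 0.148 and 0.0734). Lipid synthesis genes were uneven. Scd1, a fatty acid desaturase, read 1173 and 3078 in ORS and 252 and 326 in DF (5.8-fold higher in ORS, adjusted p = 0.00335), Elovl3, an elongase of sebaceous lipids, 238 and 471 in ORS and 38.7 and 124 in DF (adjusted p = 0.0147, lost without ORS replicate 2 or DF replicate 1), and Fasn, fatty acid synthase, 433 and 680.3 in ORS and 366 and 312 in DF (adjusted p = 0.148). Only 2 of 6 sebocyte genes were higher in ORS.

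The dermal side was set apart by its interstitial matrix. Of 13 interstitial collagens 10 were higher in DF and none in ORS, with a median log2 difference of -3.55. The 3 chains of collagen VI differed most, with Col6a1 41-fold, Col6a2 30.7-fold and Col6a3 28.9-fold higher in DF (adjusted p = 6.85e-06, 1.05e-05 and 1.01e-06). Col6a3 read 118 and 109 in ORS and 4588 and 4756 in DF. Col1a2 was 16.6-fold higher (log2 difference -4.06 with a standard error of 0.21, adjusted p = 2.59e-05). Its signal in ORS, 609 and 734, was a small share of that in DF but not low. The 3 collagens that did not pass, Col14a1, Col16a1 and Col8a1, were named after their values were seen, with log2 differences of -0.53, 0.03 and 0.09. Of 18 collagen processing genes 12 were higher in DF and none in ORS. Pcolce led them, and Lox, the oxidase that cross-links collagen and elastin, read 26.2 and 45.7 in ORS and 914 and 894 in DF, 11.2-fold higher. P3h4, a member of the prolyl 3-hydroxylase family, read 36.6 and 43.6 in ORS and 466 and 372 in DF and Plod1, a collagen lysyl hydroxylase, 83.6 and 76.8 in ORS and 520.4 and 472 in DF.

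Small proteoglycans and elastic fibre genes followed the collagens. Of 15 genes of dermal proteoglycans and hyaluronan 11 were higher in DF and none in ORS, and without ORS replicate 1 the count was 7. Prelp read 32.2 and 42.4 in ORS and 788 and 733 in DF, Ogn 18.0 and 27.1 in ORS and 489.9 and 752 in DF, Aspn 29.6 and 23.5 in ORS and 462 and 778 in DF and Fmod 18.4 and 30.7 in ORS and 415 and 328 in DF, all 4 being leucine-rich repeat proteoglycans that bind collagen fibrils. Their folds ran from 5.64 to 9.3. Dcn, decorin, of the same family, did not pass and had signal on both sides, with 1766 and 890.2 in ORS and 1326 and 1914 in DF, a value given after it was seen. Of 25 elastic fibre and matrix glycoprotein genes 15 were higher in DF and 4 higher in ORS. Fbn2, a fibrillin of early elastic fibres, read 23.7 and 29.6 in ORS and 2067 and 1484 in DF, 23.5-fold higher in DF. Emilin1 read 3.3 and 10.7 in ORS and 416 and 442 in DF and Fbln5, which guides elastin assembly, 86.5 and 129.7 in ORS and 1331 and 1040.0 in DF. Thbs4, a thrombospondin, read 1.2 and 1.3 in ORS and 529 and 352 in DF. The 4 genes higher in ORS were Tnc, Ltbp3, Efemp1 and Fbln1, named after their values were seen. Tnc, tenascin C, differed most among them with 1142 and 1544 in ORS and 322 and 167 in DF (log2 difference 2.28). The call of Ltbp3 was lost without ORS replicate 2 or DF replicate 1 and that of Fbln1 without ORS replicate 1.

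Matrix-degrading enzymes lay mostly on the dermal side and their inhibitors on both. Of 24 matrix proteases 13 were higher in DF and 1 in ORS, which was Plat, tissue plasminogen activator, named after its value was seen (254 and 234 in ORS and 147 and 131 in DF), with a call lost without any 1 of the 4 arrays. Ctsk, cathepsin K, read 22.7 and 32.2 in ORS and 535 and 528 in DF, 7.52-fold higher in DF, and Fap, a serine protease of activated fibroblasts, 23.2 and 39.0 in ORS and 421 and 611 in DF. Adam12 and Adam19, metalloproteases with a disintegrin domain, read 25.7 and 39.2 in ORS and 462 and 449 in DF, and 22.1 and 31.8 in ORS and 270.0 and 311 in DF. Of 14 protease inhibitors 4 were higher in ORS and 6 higher in DF. Serpinb5, maspin, read 1569.8 and 1533 in ORS and 98.3 and 246 in DF, 7.65-fold higher in ORS, and all 3 of its probe-sets were higher there. Serping1, the inhibitor of complement C1, read 43.3 and 66.1 in ORS and 858 and 1436 in DF and Serpinf1, an antiangiogenic serpin, 31.4 and 39.6 in ORS and 875 and 783 in DF. Reck, a membrane-anchored inhibitor of metalloproteases, read 37.4 and 25.5 in ORS and 427 and 499 in DF. Complement genes went with Serping1. Of 12 members 7 were higher in DF and none in ORS, among them the C1 proteases C1s1 (16.7 and 9.5 in ORS and 340.5 and 627 in DF) and C1ra (6.5 and 3.9 in ORS and 127 and 215 in DF).

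Mesenchymal regulators marked the dermal side. Of 34 dermal transcription factors 28 were higher in DF and 2 in ORS, with a median log2 difference of -2.03. Mef2c, a factor of muscle and vessel cells, read 4.6 and 15.6 in ORS and 1033 and 1113 in DF, 18.8-fold higher. Prrx1, a homeobox factor of limb and skin mesenchyme, read 11.1 and 16.9 in ORS and 951 and 1038 in DF, 16.3-fold higher, and its ORS arrays were near the bottom of the scale. Nr2f2, a nuclear receptor of veins and mesenchyme, read 16.8 and 9.5 in ORS and 646 and 670.1 in DF and Zeb1, a repressor of epithelial genes, 25.2 and 30.9 in ORS and 739.6 and 710.2 in DF. The 2 factors higher in ORS were Snai2 (212 and 222 in ORS and 102 and 75.0 in DF) and Meis1 (53.9 and 55.3 in ORS and 30.6 and 32.3 in DF), named after their values were seen. The call of Meis1 was lost without any 1 of the 4 arrays and when the chip lot was a block, and that of Snai2 without ORS replicate 1, ORS replicate 2 or DF replicate 2. Of 19 fibroblast genes 14 were higher in DF and 1 in ORS. Vim, vimentin, the filament protein of mesenchyme, read 246 and 212 in ORS and 9200.1 and 7175 in DF, 29.4-fold higher. The member higher in ORS was Mgp, matrix Gla protein, an inhibitor of calcification, which read 570.0 and 518 in ORS and 51.2 and 96.9 in DF (log2 difference 2.28, adjusted p = 0.000568) and was named after its value was seen.

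Where limma called no member of a list in 1 of the directions, an unadjusted p under 0.05 in that direction was reached by 1 desmosome, 1 differentiation, 1 proteoglycan and 2 hair shaft genes, and by no member of the keratin, S phase, collagen, collagen processing, complement, PDGF, IGF, VEGF, neurotrophin, vessel, nerve, red cell, leukocyte, melanocyte, papilla, heat shock or ribosomal lists.

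**Figure D3:**
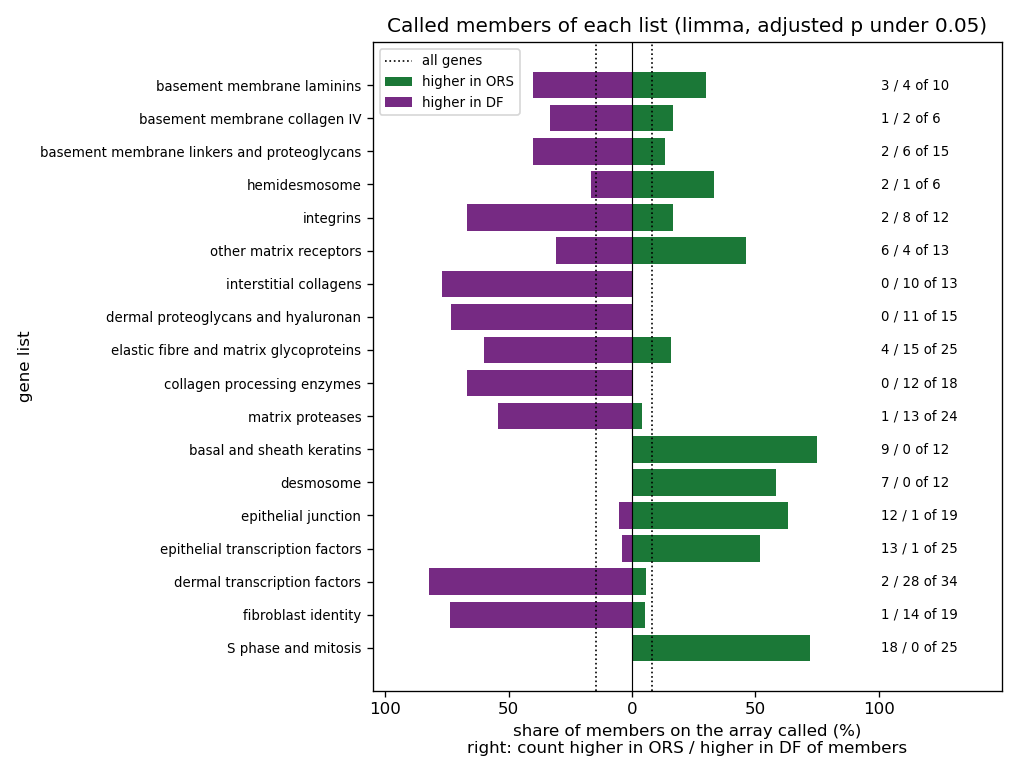
Share (%) of the measured members of 18 gene lists that limma called higher in ORS (green, to the right) and higher in DF (purple, to the left), with the counts at the right edge, and dotted lines at 7.96% and 14.6% for all genes. The basement membrane, integrin and other matrix receptor lists hold members on both sides, whereas 10 of 13 interstitial collagens lie on the DF side and 9 of 12 keratins on the ORS side.

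DF held genes of several cell types besides fibroblasts. Of 14 pericyte and smooth muscle genes 12 were higher in DF, and the summed signal of the list was 4413 and 5840.2 in ORS against 28109.7 and 34425 in DF. Myh11, the myosin of smooth muscle, read 17.6 and 32.7 in ORS and 1509 and 2092 in DF, 24.4-fold higher, and Pdgfrb, the PDGF receptor of pericytes and fibroblasts, 11.8 and 8.6 in ORS and 883 and 2467 in DF. The signal of Pdgfrb on DF replicate 2 was well above that on DF replicate 1, as was that of Notch3, a receptor of vessel wall cells (261 and 307 in ORS and 1746 and 4197 in DF). Of 15 endothelial genes 13 were higher in DF, with a summed signal of 636 and 771 in ORS against 6667 and 5855 in DF. Cldn5, the tight junction protein of endothelium, read 37.9 and 28.8 in ORS and 1097 and 901 in DF, 12.6-fold higher, Sox18, an endothelial factor, 27.7 and 27.1 in ORS and 798 and 644 in DF, and Esam, an endothelial adhesion molecule, 31.5 and 59.9 in ORS and 704 and 1039 in DF. Of 5 lymphatic genes 4 were higher in DF. Lyve1, the hyaluronan receptor of lymphatic vessels, read 16.6 and 10.2 in ORS and 1792 and 1279 in DF, 24.7-fold higher, and Reln, reelin, 37.3 and 45.4 in ORS and 2108 and 1473 in DF. Of 8 Schwann cell genes 5 were higher in DF. Mbp and Pmp22, proteins of myelin, read 2.6 and 22.8 in ORS and 2054 and 1490.5 in DF, and 80.8 and 196 in ORS and 2241 and 1738 in DF. Sox10, the factor of neural crest and its glia, read 10.2 and 12.6 in ORS and 307 and 256 in DF. The authors found Sox10 preferentially expressed in melanocytes, so its DF signal is not particular to Schwann cells.

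The genes of the 3 surface proteins used for depletion were also read. Cd34 read 74.6 and 108 in ORS and 39.2 and 27.1 in DF and was the endothelial gene higher in ORS, a call lost without ORS replicate 2 or DF replicate 2. Ptprc, which encodes CD45, read 10.9 and 13.5 in ORS and 3.6 and 9.2 in DF, and Kit, which encodes CD117, 83.5 and 78.0 in ORS and 347 and 152 in DF. Kit was not called, but it passed in limma as higher in DF with the chip lot as a block (log2 difference -1.115, adjusted p = 0.0462). Cd34, Ptprc and Kit were named for the sort and with values seen. Of 17 macrophage and leukocyte genes 4 were higher in DF, none reached 200 on both arrays of either population, and their summed signal was 449 and 488 in ORS against 881 and 965 in DF. Mrc1, the mannose receptor, read 27.1 and 25.0 in ORS and 259 and 176 in DF. Without any 1 of the 4 arrays the count was 2. Of 6 red cell genes 3 were higher in DF, Alas2, Slc4a1 (10.2 and 16.6 in ORS and 162 and 234 in DF) and Car2 (42.2 and 42.9 in ORS and 229.8 and 206 in DF). The globin gene Hba-a1, given after its value was seen, read 12.7 and 36.0 in ORS and 31.9 and 27.7 in DF. Its only probe-set read below 50 on each array of the series. Only 6 of 10 listed red cell genes were measured, and probe-sets given several genes were not used. These values therefore do not show whether DF held globin RNA. The single T cell gene higher in DF was Thy1, which fibroblasts also carry (190.3 and 276 in ORS and 1888 and 1448 in DF), and Cd3e, a defining subunit of the T cell receptor, read 5.9 and 46.7 in ORS and 44.6 and 19.3 in DF.

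Pigment cell and hair genes differed between replicates of the same population. Of 9 melanocyte genes 5 were higher in DF, with a summed signal of 572 and 879 in ORS against 13875 and 4182 in DF. Dct, a melanin synthesis enzyme, read 153 and 236 in ORS and 5119.8 and 1512 in DF and Pmel, the melanosome matrix protein, 86.7 and 253 in ORS and 4174 and 1371 in DF. Both stood over 3 times higher on DF replicate 1 than on DF replicate 2. The count of melanocyte genes higher in DF was 2 without ORS replicate 1, 3 without ORS replicate 2 and 8 without DF replicate 2. Tyr, tyrosinase, read 39.8 and 40.3 in ORS and 1001 and 226 in DF (adjusted p = 0.016) and lost its call without ORS replicate 1 or ORS replicate 2 (adjusted p = 0.0776 and 0.0661). Hair shaft and inner root sheath keratins were higher on replicate 2 in both populations. Krt35, of the hair cortex, read 159.9 and 959 in ORS and 398 and 2338 in DF (log2 difference -1.17 with a standard error of 0.88, adjusted p = 0.413), and Krt71, of the inner root sheath, 996 and 1462 in ORS and 205 and 1445 in DF (log2 difference 1.03, adjusted p = 0.347, or 0.00121 without DF replicate 2). Replicate 1 and replicate 2 arrays of ORS and DF came from different chip lots, and the part of the lot in this was not tested. Of 16 hair shaft genes 1 was higher in DF, Crip1, a LIM-domain protein that smooth muscle also carries (525 and 699.8 in ORS and 5569 and 5453 in DF). Of 12 dermal papilla genes 10 were higher in DF than in ORS, all at low signal. Corin, a protease of the papilla, read 12.7 and 5.6 in ORS and 201 and 123 in DF and Rspo2, a Wnt agonist, 8.6 and 17.2 in ORS and 92.7 and 99.8 in DF, and without DF replicate 1 the count was 6.

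Some receptors and ligands of the same family were higher on opposite sides. Of 13 FGF ligands and receptors 3 were higher in ORS and 3 higher in DF, where 7.96% and 14.6% of all genes were called. The receptors Fgfr3 and Fgfr2 read 644 and 774 in ORS and 80.3 and 151 in DF, and 759 and 934 in ORS and 184 and 306 in DF, 4.67-fold and 3.09-fold higher in ORS (adjusted p = 0.000398 and 0.00217). Which forms of these receptors were present was not tested, so they are not set here as partners of the ligands below. The ligands Fgf7 and Fgf18 were higher in DF, at low signal, with 22.4 and 23.9 in ORS and 125 and 99.4 in DF, and 3.0 and 3.3 in ORS and 70.3 and 95.3 in DF. Of 6 PDGF genes none was higher in ORS. Pdgfra, the receptor of dermal fibroblasts, read 3.2 and 2.8 in ORS and 609.8 and 658 in DF, 12.9-fold higher in DF (adjusted p = 7.29e-06), and Pdgfrb was 25.5-fold higher (adjusted p = 0.000199). Pdgfa, the ligand that follicle epithelium is known for, did not pass and read 308 and 390.2 in ORS and 249.8 and 462 in DF, a value given after it was seen. Of 10 IGF genes 7 were higher in DF and none in ORS. Igf1 and Igf2, the ligands, read 15.2 and 35.7 in ORS and 229.9 and 299.5 in DF, and 116 and 143 in ORS and 1659 and 1666 in DF, and the binding proteins Igfbp2 and Igfbp5 83.6 and 273 in ORS and 1858 and 2089 in DF, and 681 and 577 in ORS and 3024 and 4219 in DF. None of 10 EGF family genes passed in limma, 2 being higher in ORS and 1 higher in DF at an unadjusted p under 0.05, and Epgn, epigen, came nearest with 169 and 69.2 in ORS and 32.1 and 36.3 in DF (log2 difference 0.94, adjusted p = 0.0546).

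Of 15 TGF-beta and activin genes 4 were higher in ORS and 5 higher in DF, and without ORS replicate 1 or DF replicate 2 the DF count was 3. The activin subunits were split on their brightest probe-sets. Inhbb read 462 and 751 in ORS and 48.5 and 70.1 in DF, 5.89-fold higher in ORS. A dimmer Inhbb probe-set read 91.3 and 184.5 in ORS and 125.1 and 110.6 in DF and did not pass in limma (adjusted p = 0.787). Inhba read 9.4 and 40.9 in ORS and 296 and 243 in DF, 4.33-fold higher in DF. Tgfbr2, the type II TGF-beta receptor, read 311 and 241 in ORS and 2074 and 1817 in DF, 6.14-fold higher in DF, and Eng, an endothelial co-receptor, 29.9 and 39.2 in ORS and 498 and 511 in DF. Of 25 Wnt genes 6 were higher in ORS and 5 higher in DF, and without DF replicate 1 both counts were 2. Lgr5, the R-spondin receptor of follicle stem cells, read 1039.8 and 1279 in ORS and 96.6 and 108 in DF, 7.91-fold higher in ORS (log2 difference 2.98 with a standard error of 0.17, adjusted p = 3.67e-05). Wnt4 read 409 and 336 in ORS and 58.2 and 122 in DF, higher in ORS, and Wif1, a secreted Wnt inhibitor, 19.0 and 15.5 in ORS and 227 and 142 in DF, higher in DF (adjusted p = 0.00766, or 0.0566 without DF replicate 1). Sfrp1, another secreted Wnt inhibitor, read 808 and 1206 in ORS and 339.8 and 294 in DF (adjusted p = 0.0262), a call lost without any 1 of the 4 arrays. Of 12 Hedgehog genes 2 were higher in each population. Among all genes 7.96% were called toward ORS and 14.6% toward DF, so the Hedgehog count toward DF was near the share of all genes. The receptor and target Ptch1 read 1979 and 1262 in ORS and 629 and 730.0 in DF (2.24-fold higher in ORS, adjusted p = 0.00676, or 0.0502 without DF replicate 1) and the target Gli1 296 and 323 in ORS and 163 and 161 in DF (adjusted p = 0.0218), with a call lost without any 1 of the 4 arrays. Dhh, the ligand known from Schwann cells, read 28.8 and 37.2 in ORS and 162 and 176 in DF, higher in DF.

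Of 15 Notch genes 3 were higher in ORS and 5 higher in DF, where 7.96% and 14.6% of all genes were called. The ligand Jag2 read 488 and 739.9 in ORS and 92.7 and 139.9 in DF, 3.96-fold higher in ORS, and the receptor Notch3 was 8.29-fold higher in DF, as were Hey1 (log2 difference -1.77) and Heyl (93.4 and 104 in ORS and 309 and 456 in DF), targets of Notch signalling. Without ORS replicate 1, DF replicate 1 or DF replicate 2 the DF count was 3. Of 14 VEGF and angiopoietin genes 9 were higher in DF and none in ORS, led by the endothelial receptors Flt4 (44.7 and 47.1 in ORS and 1080.1 and 780.3 in DF) and Kdr (56.6 and 56.7 in ORS and 1007 and 658 in DF) and the ligand Angpt2 (15.9 and 18.8 in ORS and 268 and 452 in DF). Of 13 genes of HGF, KIT ligand, neurotrophins and their receptors 6 were higher in DF. Ntrk2, the receptor of the neurotrophin BDNF, read 99.1 and 108 in ORS and 1128 and 1301 in DF, 8.21-fold higher, and Kitl, the ligand of CD117, 265 and 166 in ORS and 676 and 902 in DF. Of 26 semaphorin, ephrin and receptor genes 8 were higher in ORS and 5 higher in DF, and without ORS replicate 2 or DF replicate 1 the ORS count was 4. Ephb6, an ephrin receptor without kinase activity, read 389.7 and 575 in ORS and 66.4 and 22.6 in DF, 5.7-fold higher in ORS, and Plxnd1, a semaphorin receptor of vessels, 10.1 and 12.3 in ORS and 342 and 393 in DF, 6.81-fold higher in DF.

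**Figure D4:**
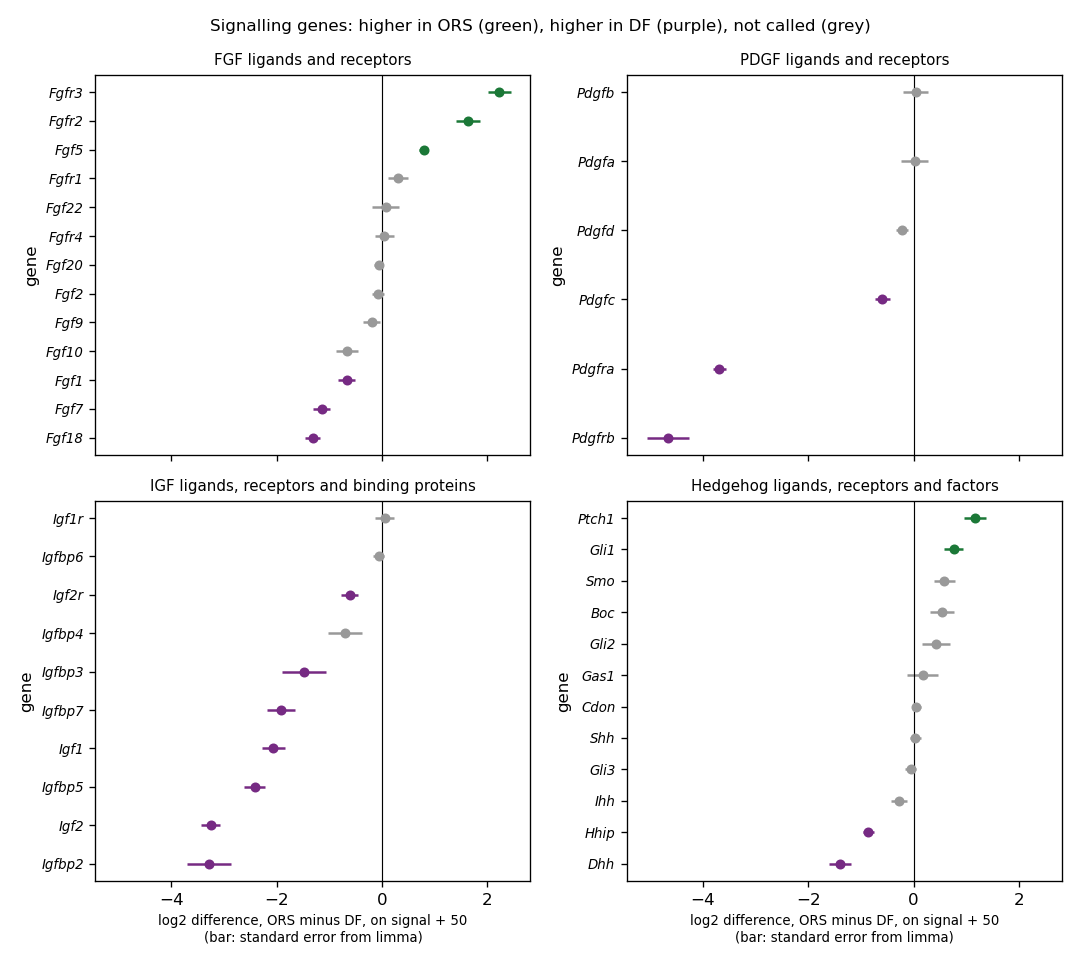
Log2 difference of ORS minus DF (on signal + 50) for every measured member of the FGF, PDGF, IGF and Hedgehog lists, with bars for limma's standard error, green for higher in ORS, purple for higher in DF and grey for not called. The receptors Fgfr3 and Fgfr2 lie to the right and the ligands Fgf7 and Fgf18 to the left, and no PDGF or IGF gene is green.

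Ribosomal and chaperone genes were called higher in ORS at near the share of all genes, which was 7.96% toward ORS and 14.6% toward DF. Of 17 ribosomal protein genes 1 was higher in ORS, Rpl11 (3672 and 4301 in ORS and 2157 and 2148 in DF), with a call lost without any 1 of the 4 arrays, and none was higher in DF. Of 15 heat shock and chaperone genes 1 was higher in ORS, Hspd1, a mitochondrial chaperonin (2305 and 2026 in ORS and 1469 and 1280.1 in DF), a call also lost without any 1 of the arrays, and with the replicate number as a block the count was 4. Immediate early genes, which cell dissociation can raise, were mixed, with an ORS count not above the share of all genes. Of 19 members 1 was higher in ORS and 5 higher in DF, and without DF replicate 1 the DF count was 2. Egr2, also a factor of follicle epithelium, read 894 and 849.6 in ORS and 206 and 214 in DF, 3.55-fold higher in ORS, and Zfp36, which speeds the decay of messenger RNAs, 846 and 1109.6 in ORS and 2371 and 2735 in DF, 2.55-fold higher in DF. Fos, given after its value was seen, read 4628 and 5135 in ORS and 5357 and 6566 in DF and did not pass. Of 4 metallothioneins Mt2 was higher in ORS (5742 and 5025 in ORS and 2317 and 3444 in DF), lost without ORS replicate 1 or DF replicate 1 (adjusted p = 0.0978 and 0.072, against 0.016).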

How the data were processed

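Members and gene lists were chosen with earlier results of these data known. The deposited table holds, per the labels, MAS 5.0 signals, which are intensities on a linear scale that the authors scaled for each array. The Robust Multi-Chip values and detection calls of the methods were not used here. Depth does not apply to arrays, whose number sets the precision.

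Left out were 64 control probe-sets. The platform annotation gave 20380 of the other 22626 probe-sets 1 gene, 691 several and 1555 none, and 697 of 786 listed genes were measured. With limma 3.58.1 (R 4.3.3), log2(signal + 50) was fitted with a mean for each of 5 populations over 10 arrays, without a trend or a block. There were 5 residual degrees of freedom, and p-values were adjusted over all probe-sets by Benjamini-Hochberg. Of several probe-sets of a gene, the one brightest on average in log2 over the 10 arrays was used. Values were summarised and plotted in Python 3.11.15 (numpy 2.4.6, pandas 2.3.3, matplotlib 3.10.9).

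Named were all basement membrane and hemidesmosome genes, the sort markers, the 10 leading genes in each direction and up to 4 members of each other list with the largest difference. Others are stated as named after their values were seen. The methods describe a cell suspension divided among the sorts and 2 independent datasets. Nothing ties replicate numbers to these datasets, so the fit had no block, and blocked values are given where a call changed. The fit was tested on simulated data. Alternatives were other pseudocounts, signal minimums, normalizations, blocks and fits, each array left out in turn, values within a chip lot and the median over a gene's probe-sets.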

Additional observations from a re-analysis of the deposited data

How the results depend on the processing

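Of 177 genes named in the text that were called, 133 were called in each of the 15 fits run, 13 were called wherever they were tested but missed a signal minimum, and 31 lost the call in at least 1 fit, 29 of these without 1 of the 4 arrays. With a pseudocount of 1 limma called 1085 probe-sets higher in ORS and 3 basement membrane genes higher in ORS, a count that rose to 8 by quantile normalization and with either signal minimum. Asking also for a 2-fold difference left 634 probe-sets higher in ORS and 1369 higher in DF. With a signal of at least 200 on both arrays of ORS or DF 1357 probe-sets were higher in DF, and 1572 with that signal in any population, when 6906 and 8054 were tested. Without 1 array the counts ran from 826 to 1215 probe-sets higher in ORS, from 1773 to 2069 higher in DF, and from 3 to 6 basement membrane genes higher in ORS. An array left alone is there assumed to vary like the other groups.

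With the replicate block 1807 probe-sets were higher in ORS and 3144 higher in DF, with 7 and 13 basement membrane genes, and of the called genes named Tjp1 alone lost its call, while Col18a1, Col4a6 and Plec gained one. Of the 33 named genes not called, 10 passed in at least 1 fit. The deviations of same-numbered ORS and DF arrays correlated at 0.121. Within a chip lot no called gene named changed direction, and counts were not computed there, since a lot holds 1 ORS and 1 DF array.

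Signs turned for genes that had not been called. By quantile normalization the log2 differences were 0.006 for Cd3e, 0.074 for Flg, 0.041 for Hba-a1 and 0.159 for Ntn4. Over the 4 fits without 1 array they ran from -0.356 to 0.216 for Cd151, from -0.534 to 0.256 for Cd3e, from -0.263 to 0.313 for Col16a1, from -0.032 to 0.206 for Col8a1, from -0.806 to 0.144 for Dcn, from -0.347 to 0.108 for Hba-a1, from -0.498 to 0.039 for Hspg2, from -2.375 to 0.04 for Krt35, from -0.25 to 2.301 for Krt71, from -0.376 to 0.072 for Krt75, from -0.134 to 0.052 for Ntn4 and from -0.368 to 0.405 for Pdgfa. The median over the probe-sets of Dst, whose brightest probe-set was called higher in DF, was 1.475. The cause was not tested.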

Other observations

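Genes of fat, muscle and mast cells were also read in both populations. The muscle and mast cell counts higher in DF did not exceed the 14.6% of all genes called in that direction. Of 9 adipocyte genes 2 were higher in ORS and 3 higher in DF. Fabp4, a fatty acid carrier of adipocytes and capillary endothelium, read 102 and 102 in ORS and 1192 and 1770.5 in DF, 9.9-fold higher in DF (log2 difference -3.31, limma adjusted p = 3.51e-05). Lpl, lipoprotein lipase, read 227 and 506 in ORS and 1395 and 1712 in DF and Cd36, a fatty acid translocase, 30.2 and 86.7 in ORS and 332 and 359 in DF. Of 11 skeletal muscle genes 1 was higher in DF, the troponin gene Tnnc2 (3.6 and 2.6 in ORS and 125 and 51.2 in DF). Of 8 mast cell genes 1 was higher in DF, the chymase gene Cma1 (32.7 and 50.4 in ORS and 71.7 and 91.1 in DF, adjusted p = 0.0291), a call lost without ORS replicate 1 or DF replicate 2 (adjusted p = 0.17 and 0.142). Of 6 inner root sheath genes 2 were higher in ORS, a count that was 5 without DF replicate 2 and 0 without ORS replicate 2. Gata3, a factor of that layer, read 179.5 and 242 in ORS and 25.5 and 67.1 in DF. Tchh, trichohyalin, read 367 and 463 in ORS and 35.2 and 197 in DF. The call of Gata3 was lost without ORS replicate 2 or DF replicate 1 and that of Tchh without ORS replicate 1 or ORS replicate 2.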
